A study of Mus musculus with 6 samples.

Results

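The genes described here were 10 regulators of the G1 phase of the cell cycle in mouse embryonic stem cells. They were taken by name: the D-type cyclin genes Ccnd1, Ccnd2 and Ccnd3, the E-type cyclin genes Ccne1 and Ccne2, the kinase genes Cdk4 and Cdk6, the inhibitor genes Cdkn1a and Cdkn2a, and the retinoblastoma gene Rb1. For each gene, all CUT&RUN peaks that overlapped the gene body or the 5 kb upstream of it by at least 1 bp were collected, with the gene limits of GENCODE vM21 on mm10. These 10 genes, of 21938 protein-coding genes, held 31 of the 59927 peaks of the H3K4me3 list and 2 of the 2464 peaks of the ASH2L list. The rule that lists them uses no measured value of these data.

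The peaks came from the mouse embryonic stem cell line E14, grown with serum and LIF. In CUT&RUN, a nuclease bound to an antibody cuts the chromatin around the antibody's target, and the released DNA is sequenced. The 6 samples formed 3 groups of 2: wild-type parental E14 cells profiled with anti-HA, and HA-Ash2L E14 cells profiled with anti-HA or with anti-H3K4me3. All of them received doxycycline for 48 h, which induces the HA-Ash2L transgene where it is present. The labels call the HA-Ash2L genotype a knock-in, whereas the methods describe a piggyBac transposon with a doxycycline-responsive transactivator, from picked colonies screened for the tagged ASH2L. All peaks below are thus from induced HA-Ash2L cells, and parental cells entered no comparison here. The labels give 1000000 cells for anti-HA and 100000 for anti-H3K4me3, and the methods give 1000000 throughout.

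D-type cyclins bind CDK4 or CDK6, and E-type cyclins bind CDK2. These kinases phosphorylate the retinoblastoma protein, which otherwise holds E2F transcription factors inactive, and so open the way from G1 into DNA replication. Embryonic stem cells are known for a short G1 phase. H3K4me3, trimethylation of lysine 4 of histone H3, marks the start regions of active and poised genes, and ASH2L is a shared subunit of the MLL/SET1 complexes that write it.

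Duplicates had been merged by the authors ahead of peak calling, so each peak carried 1 value, no spread between samples could be computed, and no test was made. For each peak the list gives the number of sequenced tags, the fold enrichment at the summit over a background modelled from the same library, and a p-value score, 10 times the negative log10 of p, that is 50 at the limit of the list. In this text, the 95% intervals of tags are exact Poisson intervals that cover counting error only. H3K4me3 peaks rested on 27328071 tags after filtering, of which 45.7% lay in peaks, and ASH2L peaks on 25677963 tags, of which 0.398% did, so tags were not compared between the lists. The median H3K4me3 peak was 1453 bp long with 113 tags, and the median ASH2L peak was 717 bp long with 32 tags. A gene without a peak is a gene absent from a list, which does not show that the mark or the protein is absent. More cells with the mark and more of the mark per cell cannot be told apart in such bulk profiles. A peak over a start was present at 67.3% of all protein-coding genes. Of 8 stem cell marker genes, Klf4, Esrrb and Zfp42 had an H3K4me3 peak over a start and Pou5f1, Sox2, Nanog, Tdgf1 and Dppa5a had none in their windows. Of 8 markers of differentiated cells, 3 had a peak over a start, with 1022 tags at Neurod1, 340 at Myod1 and 30 at Krt5, and Myh6 had a peak of 49 tags over no start.

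H3K4me3 peaks were found in the windows of 9 of the 10 G1 regulators, and 76.2% of all protein-coding genes had such a peak. Only Cdkn1a had none. A peak lay over an annotated transcript start of the gene itself at 6 genes (Ccnd1, Ccnd2, Ccne2, Cdk6, Cdkn2a and Rb1), against 67.3% of all genes. At Ccnd3, Ccne1 and Cdk4, the window held peaks but none of them covered a start, a pattern found at 8.9% of all genes. The strongest peak of a window had a median of 716 tags over the 10 genes and 355 tags over all genes, in windows of similar median length (21806 bp and 22425 bp). ASH2L peaks were found at Ccne2 and Cdk4 (2 of 10 genes, against 10.4% of all genes), and both covered starts, against 6.97% of all genes. With only peaks at or above the median fold enrichment of their list, 10 H3K4me3 peaks at 4 genes remained, 1 gene (Cdkn2a) had a peak over a start, and neither ASH2L peak remained. Both ASH2L peaks were also lost with a p-value score of at least 100. The shares of all genes that keep a peak under these filters were not computed, so the filtered counts have no background. In the whole H3K4me3 list, the longest peaks had the lowest fold enrichment, as given below.

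**Figure D1:**
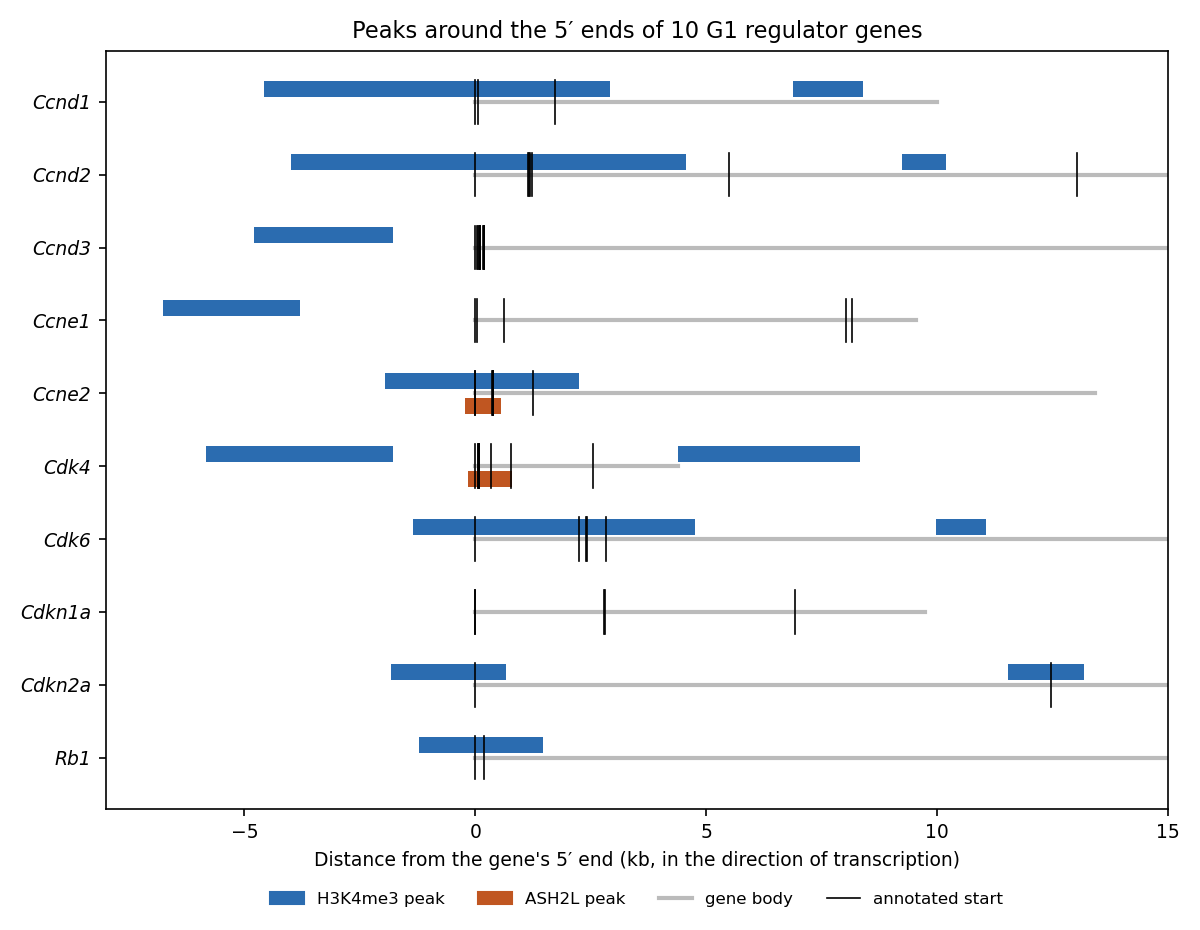
Peaks around the 5′ end of each gene, with the distance from the 5′ end in kb along the direction of transcription on the x axis and 1 row per gene. Blue bars are H3K4me3 peaks, orange bars are ASH2L peaks, grey lines are gene bodies and black ticks are annotated starts, and peaks more than 15 kb downstream are not drawn. Blue bars cover starts at 6 genes, lie on both sides of the Cdk4 starts, lie upstream of the Ccnd3 and Ccne1 starts and are missing at Cdkn1a.

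The longest and most tag-rich peaks of the group lay over the starts of Ccnd1, Ccnd2 and Cdk6. At Ccnd1, the cyclin D1 gene on the minus strand of chromosome 7 (chr7:144929931-144939925), the peak at chr7:144937008-144944492 was 7485 bp long and covered all 3 annotated starts. It began 4567 bp before the gene's 5′ end and ended 2917 bp into the gene. It had 1508 tags (interval 1433 to 1586), which was percentile 99.9 among the strongest peaks of all protein-coding genes. Its fold enrichment of 2.79 was low, at percentile 0.235 of the list. A further peak of 1509 bp with 85 tags and a fold enrichment of 7.94 lay in the non-coding part of an exon, centred 7643 bp downstream of the 5′ end. Together these peaks covered 60% of the Ccnd1 window, the highest share of the 10 genes.

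At Ccnd2, the cyclin D2 gene (chr6:127125162-127152193, minus strand), the peak over the promoter began 3996 bp before the 5′ end and ended 4576 bp after it. It was 8573 bp long, when the longest peak of the whole list was 8609 bp, and had 1202 tags (interval 1135 to 1272). It covered 5 of the 7 annotated starts and the start of the antisense gene 9330179D12Rik. Its p-value score of 57.84 was close to the limit of 50, and its fold enrichment was 2.54. A peak of 2226 bp with 266 tags was centred in a coding exon, and a peak of 968 bp with 68 tags in an intron. Both had a higher fold enrichment (7.39 and 8.29) than the peak over the promoter.

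Ccnd3, the cyclin D3 gene (chr17:47505051-47599691, plus strand), differed from the other D-type cyclin genes in that none of its 19 annotated start sites was under a peak. It had 7 peaks in its window and, with 2363, the highest sum of tags of the 10 genes. The peak at chr17:47500259-47503277 (3019 bp, 527 tags) lay over the start of the neighbouring gene Taf8 and ended 1774 bp before the 5′ end of Ccnd3. The other 6 were intronic, the nearest beginning 25537 bp inside the gene. They had between 25 and 750 tags and between 582 bp and 4968 bp. The strongest, at chr17:47568223-47573190, had 750 tags (interval 697 to 806) and a fold enrichment of 4.43. The weakest by score stood at 50.24, just inside the limit of the list.

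The E-type cyclin genes differed in whether their starts were under a peak. Ccne2, the cyclin E2 gene (chr4:11191351-11204779, plus strand), had 1 H3K4me3 peak, at chr4:11189405-11193603, that covered all 7 starts. This peak was 4199 bp long, with 752 tags (interval 699 to 808), a fold enrichment of 4.83 and a score of 832.89, which was percentile 94.3 of the list. An ASH2L peak at chr4:11191130-11191910 lay wholly inside it. It was 781 bp long, with 34 tags (interval 23.5 to 47.5) and a fold enrichment of 4.65, and covered 6 of the 7 starts. Within the ASH2L list it was an ordinary peak by tags (percentile 57.4) and a low one by score (54.28, percentile 24.3).

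At Ccne1, the cyclin E1 gene (chr7:38097984-38107534, minus strand), no peak covered any of the 5 starts. The only H3K4me3 peak, at chr7:38111336-38114293, lay upstream, and its near edge was 3802 bp from the 5′ end. It had 380 tags (interval 343 to 420), a fold enrichment of 3.96 and a score of 72.05, and 1199 bp of its 2958 bp fell inside the window. In the other direction the next peak was 12458 bp away. The promoter sequence is shown because it is rich in CpG, which mostly goes with a peak in this list. Promoters were taken as the 250 bases before the RefSeq start on GRCm38.p6, the assembly also called mm10. Printed stretches end at the first GENCODE start where that lies further upstream, and negative positions count the bases back from the RefSeq start. The Ccne1 stretch, chr7:38107534-38107740 on the minus strand, has 4 matches to the GC box (GGGCGG, read on both strands) in capitals, beginning at −236, −110, −62 and −49.
Ccne1: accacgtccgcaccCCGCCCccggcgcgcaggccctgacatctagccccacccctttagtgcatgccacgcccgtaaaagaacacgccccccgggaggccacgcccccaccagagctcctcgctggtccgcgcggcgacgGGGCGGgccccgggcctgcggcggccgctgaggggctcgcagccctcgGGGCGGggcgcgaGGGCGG
The 250 bases held 34 CpG, more than nearly all promoters (percentile 97). Of the 1952 promoters with 30 or more CpG, 94.4% had an H3K4me3 peak, and Ccne1 was among the 110 that had none.

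At Cdk4, the starts were under an ASH2L peak and under no H3K4me3 peak. Cdk4 encodes a kinase partner of the D-type cyclins (chr10:127063534-127067920, plus strand). The ASH2L peak at chr10:127063382-127064334 was 953 bp long, began 152 bp before the 5′ end, ended 800 bp after it and covered 8 of the 9 start sites. It had 44 tags (interval 32 to 59.1), a fold enrichment of 4.24 and a score of 62.94, percentiles 81, 11.4 and 54.1 of the ASH2L list. Among the 1528 genes with ASH2L over a start, 33 (2.16%) had no H3K4me3 over a start. H3K4me3 peaks lay on either side: chr10:127057713-127061749 (4037 bp, 512 tags, over the start of March9) ended 1785 bp upstream of the 5′ end, and chr10:127067917-127071868 (3952 bp, 682 tags, over the starts of Tspan31 and A730063M14Rik) began 4383 bp downstream of it, so that only its first 4 bp lay in the Cdk4 window. Peaks within 5 kb on both sides of an uncovered 5′ end were found at 221 of the 7166 genes with no H3K4me3 over a start (3.08%), and at 2 of the 33 genes above. The Cdk4 promoter, chr10:127063285-127063534 on the plus strand, is shown because it lies partly under the ASH2L peak. Capitals mark 4 matches to the E box CACGTG, which reads the same on both strands, beginning at −172, −118, −98 and −11, and a GC box at −80.
Cdk4: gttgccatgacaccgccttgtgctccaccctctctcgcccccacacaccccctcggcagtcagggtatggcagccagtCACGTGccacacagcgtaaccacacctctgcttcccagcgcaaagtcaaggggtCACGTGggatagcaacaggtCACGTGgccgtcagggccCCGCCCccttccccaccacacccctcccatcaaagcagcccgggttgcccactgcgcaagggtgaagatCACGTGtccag
The E box letters were searched after this sequence had been seen. They occurred in 6.02% of the 32841 promoters, and 7 promoters (0.0213%) held 4 or more matches. A match is a run of letters, not a measured binding site. The promoter held 13 CpG, and in the class with 10 to 14 CpG, 87.6% had an H3K4me3 peak.

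Cdk6, the gene of the other kinase partner of D-type cyclins (chr5:3341485-3531008, plus strand), had the most peaks, with 10 over a gene of 189524 bp. The peak at chr5:3340135-3346251 covered 5 of its 6 start sites and was 6117 bp long. It had 1335 tags (interval 1264 to 1409) and a fold enrichment of 2.9. The other 9 lay in introns or, for the last pair, in the non-coding part of an exon, and had between 35 and 287 tags. The strongest of these, at chr5:3385816-3387832, had 287 tags, a fold enrichment of 7.76 and a score of 673.09, above that of the peak over the promoter (541.48). All of the other 9 had a higher fold enrichment than the peak over the promoter, from 4.61 to 9.63. A peak of 1035 bp with 59 tags lay over the start of the antisense gene Gm17590.

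**Figure D2:**
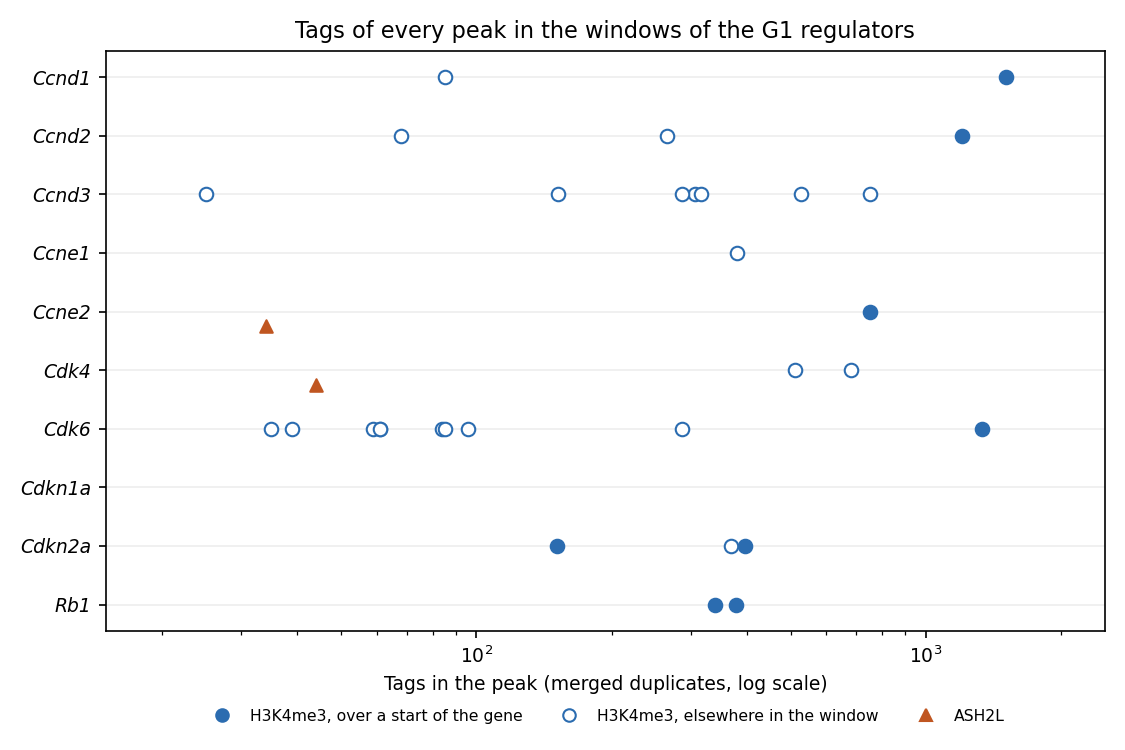
Tags in each peak of the 10 windows, on a log scale, with 1 row per gene. Filled circles are H3K4me3 peaks over a start of the gene, open circles are H3K4me3 peaks elsewhere in the window and triangles are ASH2L peaks, set slightly lower, and the filled circles of Ccnd1, Cdk6 and Ccnd2 stand at 1508, 1335 and 1202 tags.

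Cdkn1a encodes p21, an inhibitor of cyclin-dependent kinases that p53 induces (chr17:29090976-29100727, plus strand). Neither list held a peak in its window. The nearest H3K4me3 peak ended 16115 bp upstream of the 5′ end and the next began 29493 bp downstream of it. The nearest ASH2L peak was 82427 bp away. RefSeq gives Cdkn1a 2 promoters, which are shown because they differ in CpG. The stretch chr17:29090729-29090976 belongs to a promoter with 2 CpG, and chr17:29093519-29093768 is a promoter with 19 CpG, with GC boxes in capitals at −104 and −46.
Cdkn1a, upstream promoter: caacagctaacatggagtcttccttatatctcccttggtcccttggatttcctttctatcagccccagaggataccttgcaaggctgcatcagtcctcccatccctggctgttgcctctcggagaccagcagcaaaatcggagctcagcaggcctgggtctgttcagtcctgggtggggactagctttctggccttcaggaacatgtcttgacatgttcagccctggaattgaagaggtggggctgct
Cdkn1a, downstream promoter: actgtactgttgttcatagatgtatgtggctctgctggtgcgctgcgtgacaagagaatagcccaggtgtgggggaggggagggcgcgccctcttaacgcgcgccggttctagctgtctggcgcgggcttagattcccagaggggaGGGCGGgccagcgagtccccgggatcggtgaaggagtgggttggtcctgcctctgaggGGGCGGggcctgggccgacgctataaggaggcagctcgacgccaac
Of all promoters with 1 to 4 CpG, 17.2% had an H3K4me3 peak, and of those with 15 to 19 CpG, 93.1% had one. The downstream promoter was thus among 213 of its class without a peak.

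Cdkn2a has 2 promoters and a peak over each (chr4:89274471-89294653, minus strand). Its proximal first exon leads to p16INK4a, an inhibitor of CDK4 and CDK6, and its distal first exon to p19ARF, which stabilizes p53. The peak over the distal start, chr4:89293976-89296472, was 2497 bp long with 396 tags (interval 358 to 437), a fold enrichment of 6.92 and a score of 871.72, the highest score among the 31 peaks. The peak over the proximal start, chr4:89281472-89283108, was 1637 bp long with 151 tags (interval 128 to 177) and a fold enrichment of 8.58. The distal peak thus had more tags and the intervals did not overlap, whereas the proximal peak had the higher fold enrichment. A further peak, chr4:89272298-89277375 (5078 bp, 369 tags), reached past the 3′ end of the gene and covered the start of the lincRNA gene Gm12606. Both promoters are shown on the minus strand because they contrast in base composition. Capitals mark, in the distal stretch chr4:89294653-89294869, a match to the E2F letters TTTCCCGC at −99 and a GC box at −48, and the stretch chr4:89282193-89282442 before the proximal start holds none of the motifs searched.
Cdkn2a, distal promoter: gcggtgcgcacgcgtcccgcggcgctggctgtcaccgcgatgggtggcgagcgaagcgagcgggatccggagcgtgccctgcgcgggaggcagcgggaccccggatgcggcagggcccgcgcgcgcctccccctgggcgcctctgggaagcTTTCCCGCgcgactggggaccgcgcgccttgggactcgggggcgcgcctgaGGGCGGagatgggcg
Cdkn2a, proximal promoter: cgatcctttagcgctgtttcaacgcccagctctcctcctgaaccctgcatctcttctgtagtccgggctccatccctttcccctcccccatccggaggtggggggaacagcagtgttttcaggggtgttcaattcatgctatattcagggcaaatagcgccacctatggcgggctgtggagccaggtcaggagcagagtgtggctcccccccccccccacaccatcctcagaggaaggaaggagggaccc
The distal promoter had 40 CpG in its 250 bases (percentile 98.9) and a further GC box at −14, beyond the printed stretch, and the proximal promoter had 7 CpG.

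Rb1 (chr14:73183673-73325822, minus strand) had 2 peaks in a window of 147150 bp and the lowest covered share of the 9 genes with peaks, 3.78%. The peak at chr14:73324365-73327045 covered the main start. It was 2681 bp long, with 340 tags (interval 305 to 378), a fold enrichment of 6.27 and a score of 763.03. The other, chr14:73237160-73240037, covered the start of an internal processed transcript of Rb1 and also that of Lpar6, a receptor gene that lies in an Rb1 intron. It had 378 tags (interval 341 to 418) and a fold enrichment of 6.21, so the 2 peaks differed little and their intervals overlapped.

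Of the 31 H3K4me3 peaks, 8 lay over a start of the gene itself and had a median of 574 tags and 3538 bp. Another 5 lay over the start of a different gene, with 59 to 682 tags. These 5 had a median of 512 tags and 3952 bp. The remaining 18 covered no start and had a median of 90.5 tags and 1566 bp, with a maximum of 750 tags at Ccnd3. The fold enrichments of the 8 peaks over own starts (2.54 to 8.58) and of the 18 over no start (3.67 to 9.63) overlapped widely.

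Fold enrichment was lowest at the longest peaks, among these genes and in the list as a whole. The 3 peaks with most tags, at Ccnd1, Cdk6 and Ccnd2, had the 3 lowest fold enrichments of the 31, from 2.54 to 2.9. In the whole list, the median fold enrichment was 7.22 for peaks of 1001 to 2000 bp and 3.39 for the 63 peaks of more than 8000 bp. The median score rose to 552 at 3001 to 4000 bp and was 67 above 8000 bp, where 95.2% of peaks scored below 100. The headers give a background computed from the same library within 10000 bp around a peak, with no control library. Whether this background bears on the uncovered starts of Ccnd3, Ccne1, Cdk4 and Cdkn1a was not tested.

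**Figure D3:**
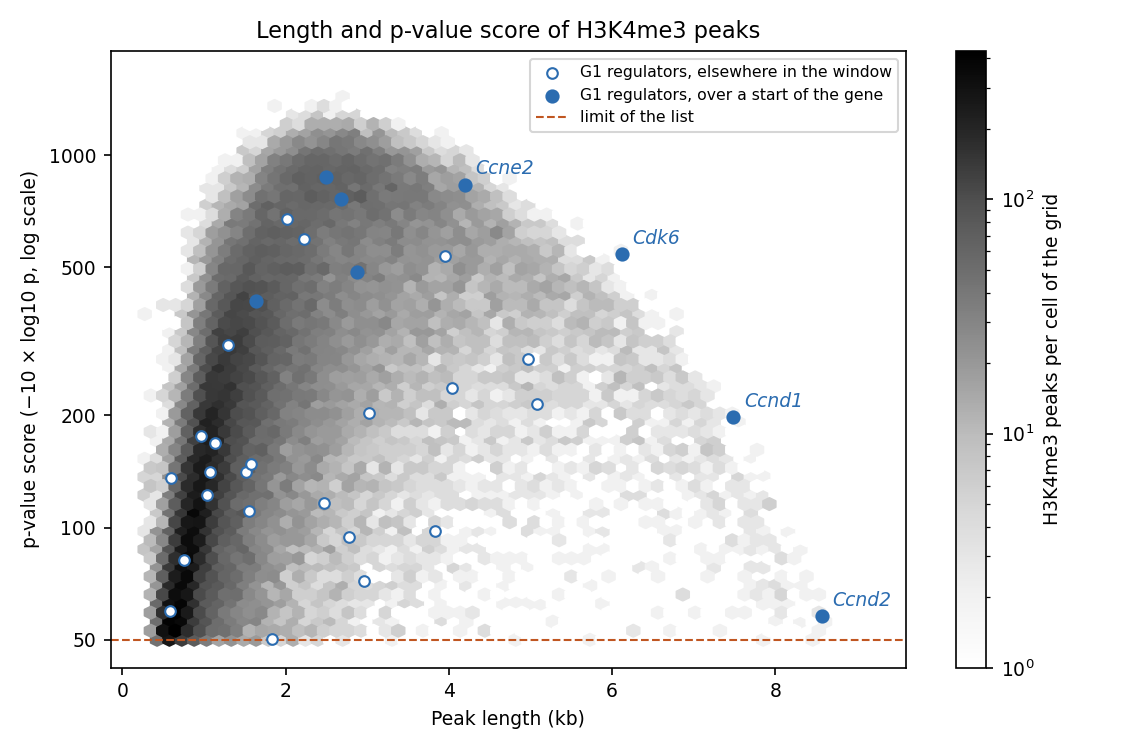
Length of H3K4me3 peaks in kb against p-value score on a log scale, with the number of all 59927 peaks in each cell of the grid in grey. Filled circles are G1 regulator peaks over a start of the gene, open circles are the other G1 regulator peaks and the dashed line is the limit of the list at 50, which the Ccnd2 peak of 8573 bp nearly reached.

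The share of promoters with an H3K4me3 peak rose with CpG content over all promoters, and several CpG-rich promoters of G1 regulators had none. Of the 10 genes, 6 matched the RefSeq promoter table, with 9 promoters, and Ccnd1, Ccnd2, Ccne2 and Rb1 did not. These 4 are all among the 6 genes with a peak over a start, so the 9 promoters come mostly from genes without one, and their count is not comparable with the share of all promoters. Over all promoters, 51% had an H3K4me3 peak, and the share was 3.95% without CpG and 94.4% with 30 or more. Of the 9 promoters, 3 had a peak: the Cdk6 promoter with 22 CpG and both Cdkn2a promoters, with 40 and 7. The 6 without a peak were those of Ccnd3 (11 and 19 CpG), Ccne1 (34), Cdk4 (13) and Cdkn1a (2 and 19), against a median of 6 over all promoters. The motifs searched on both strands were the E2F letters TTTCCCGC, TTTGGCGC, TTTGCCGC and TTTCGCGC, found in 1.86% of all promoters, GGGCGG in 32.7%, CCAAT in 33.9%, TATAAA in 12.4% and CACGTG in 6.02%. The 9 promoters held 20 matches, none overlapping another. Apart from those shown above, these were GC boxes at Ccnd3, a CCAAT at its downstream promoter, and a TATAAA and an E box at Cdk6.

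**Figure D4:**
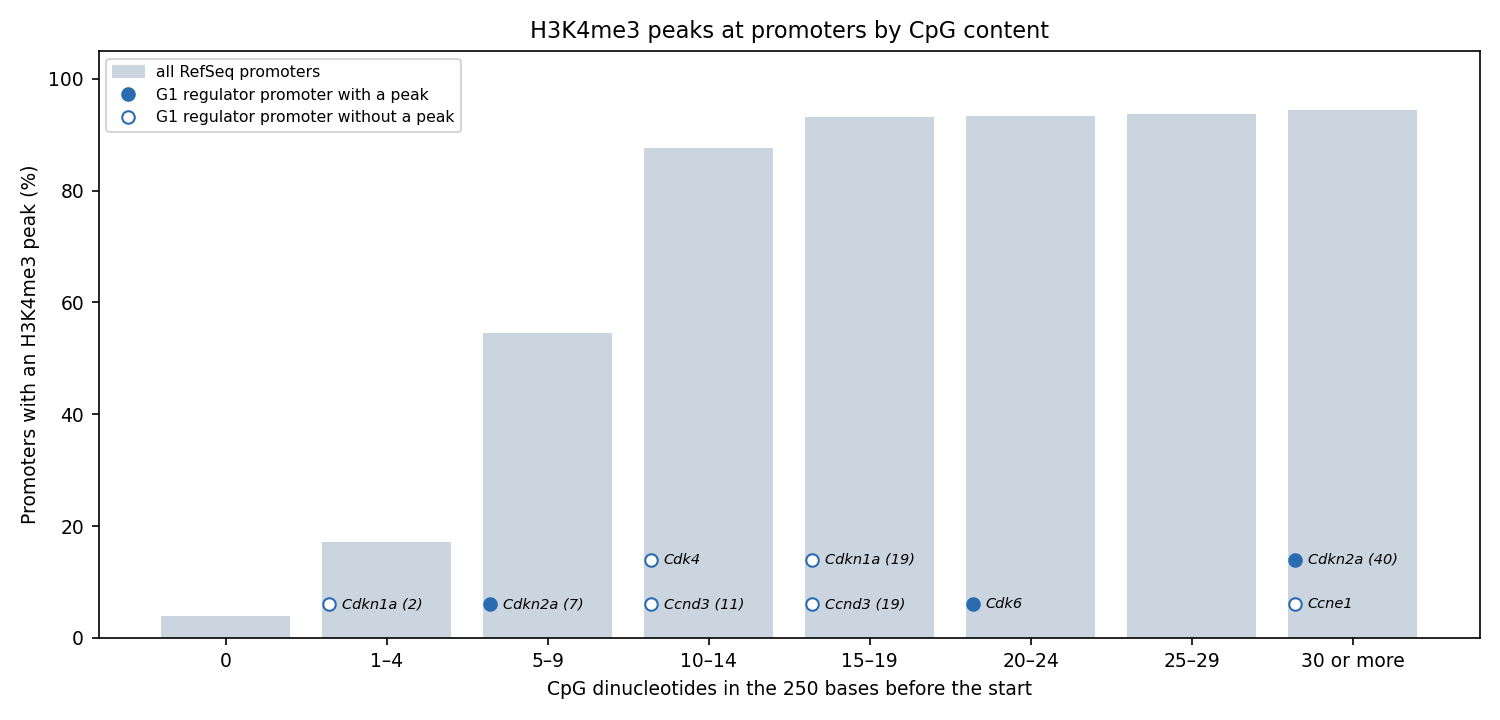
Share of RefSeq promoters with an H3K4me3 peak in the 250 bases before the start (bars, %), by number of CpG dinucleotides in them. Circles place the 9 promoters of G1 regulators in their class, filled with a peak and open without, at a height that carries no value, and numbers in brackets are CpG where a gene has 2 promoters. The share is 3.95% without CpG and 94.4% at 30 or more, where Ccne1 is open and Cdkn2a is filled.

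By the median, the strongest H3K4me3 peak in the window had more tags at the cyclin and CDK genes than at the inhibitor genes, with Rb1 counted among the latter. In order, the values were 1508 at Ccnd1, 1335 at Cdk6, 1202 at Ccnd2, 752 at Ccne2, 750 at Ccnd3, 682 at Cdk4 and 380 at Ccne1, and, on the other side, 396 at Cdkn2a, 378 at Rb1 and 0 at Cdkn1a. Not all of these peaks mark the named gene alone, as the 682 tags of Cdk4 lie over the starts of Tspan31 and A730063M14Rik. The 1202 tags of Ccnd2 lie also over the start of 9330179D12Rik, and the 378 of Rb1 also over that of Lpar6. The 396 tags of Cdkn2a lie over the distal start, that of p19ARF, and the peak over the p16INK4a start had 151. The counting intervals of neighbours overlapped between Cdk6 and Ccnd2, between Ccne2, Ccnd3 and Cdk4, and between Cdkn2a, Ccne1 and Rb1. The medians were 752 and 378 tags, a ratio of 1.99, and the sides overlapped, since Ccne1 was below Cdkn2a. Without Rb1 the ratio was 3.8. In the wider pathway list described last, the medians were 624 tags for 6 other genes of the G1/S kinases and their activators and 616 for 5 other CDK inhibitors. Tags summed over a window had medians of 1536 for the 7 cyclin and CDK genes and 718 for the 3 inhibitors, a ratio of 2.14. This ratio was 3.35 without Rb1 and 1.37 with peaks over the genes' own starts alone. Per kb of window it was 8.36, where the inhibitor median of 4.88 was the value of Rb1, with its window of 147150 bp. Summed peak lengths had medians of 8994 bp and 5559 bp. The sums include peaks that lie over the starts of other genes, as at Ccnd2, Ccnd3, Cdk4, Cdk6, Cdkn2a and Rb1. With peaks over the genes' own starts alone, the median of summed length was 4199 bp against 4134 bp, a ratio of 1.02 in place of 1.62. The share of the window covered gave a ratio of 6.03. Its inhibitor median was again that of Rb1, at 3.78%, beside 28% at Cdkn2a and 0% at Cdkn1a. The ratios per kb and by covered share were not computed without Rb1. By the highest fold enrichment of any peak in the window, the order of the medians turned, at 6.02 for cyclins and CDKs, again the Cdk4 peak over Tspan31, and 6.27 for inhibitors. By the fold enrichment of the peak with most tags it turned as well, at 3.96 and 6.21. A peak over a start was present at 4 of the 7 cyclin and CDK genes and at 2 of the 3 inhibitors, against 67.3% of all genes. An ASH2L peak was present at 2 of the 7 and 0 of the 3, against 10.4% of all genes, and in the wider list at 0 of the 6 other genes of the kinases and their activators and 2 of the 5 other CDK inhibitors. With 7 and 3 chosen genes and no replicate values, no test was made of these differences.

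**Figure D5:**
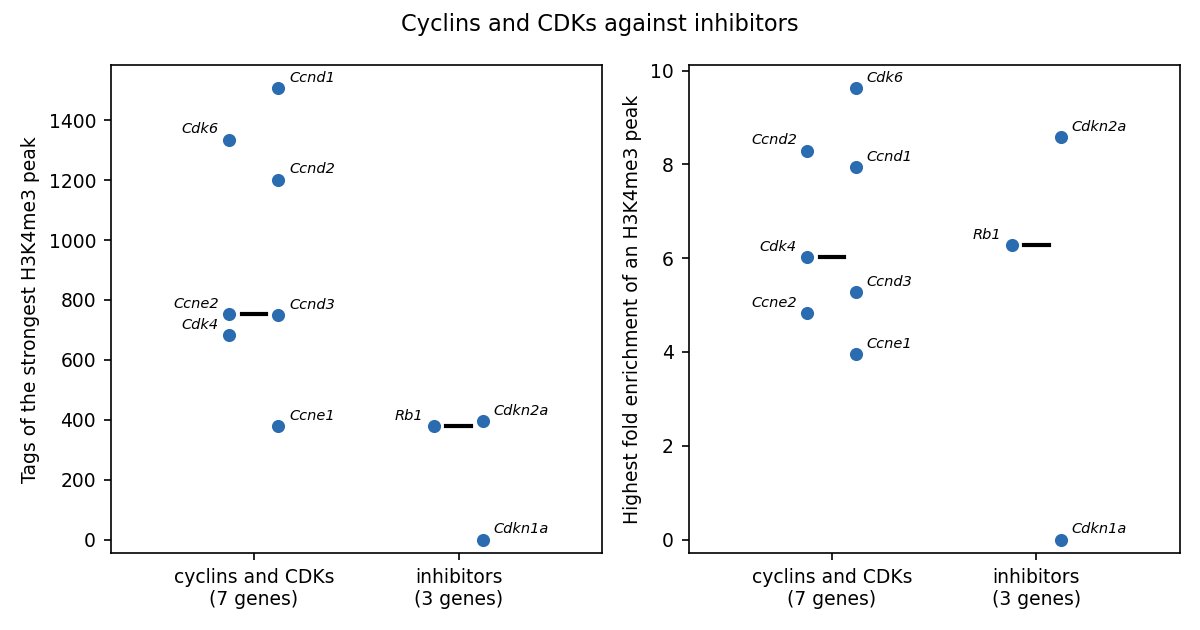
Tags of the strongest H3K4me3 peak (left) and highest fold enrichment of any peak in the window (right) for each gene, with cyclins and CDKs set against inhibitors. Points are genes, short bars are medians (752 and 378 tags, 6.02 and 6.27 in fold enrichment), and Cdkn1a, which has no peak, is drawn at 0.

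In a list of 39 other genes of the same pathway, 36 had an H3K4me3 peak in the window, against 76.2% of all protein-coding genes. A peak lay over a start at 34 of them, against 67.3% of all genes, and the strongest peak had a median of 631 tags. The 5 other CDK inhibitors all had a peak over a start, led by Cdkn1b, the p27 gene, with 978 tags. Cdkn2b, with 354, was below the 396 tags of Cdkn2a, and the remaining 4 were above it. The 6 genes Cdk2, Ccna2, Cdk7, Ccnh, Mnat1 and Cdc25a had a peak over a start each, with 317 to 800 tags. The first 4 encode kinases or cyclins, Mnat1 an assembly factor of the CDK7 kinase, and Cdc25a, with the most tags, a phosphatase that activates CDK2. The other pocket protein genes, Rbl1 and Rbl2, had 612 and 554 tags.

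Of the 10 genes of the E2F family and its DP partners, 9 had a peak over a start, with a maximum of 1288 tags at E2f4, and E2f2 had a peak of 193 tags elsewhere in its window. Of the 6 upstream regulators, 5 had one, with a maximum of 1617 at Myc, and Trp53, the p53 gene, had no peak within 16718 bp of its 5′ end. Of the 10 replication genes, 7 had one, with a maximum of 1093 at Mcm7. Mcm2 had its nearest peak 2069 bp from the 5′ end, and Cdt1 and Rrm2 had no peak in the window. ASH2L peaks were found at 5 of the 39 genes, against 10.4% of all genes: Cdkn1b with 70 tags, Cdkn1c with 36, E2f6 with 32, Rbl1 with 31 and Fbxw7 with 24. All of these overlapped an H3K4me3 peak, unlike the ASH2L peak of Cdk4, and all but that of Fbxw7 covered a start.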

How the data were processed

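CUT&RUN data came from 6 samples, with 2 in each of 3 groups. Per the methods and the submitters' processing notes, the authors mapped reads to mm10 with Bowtie2, used SAMtools 1.5 and bedtools, and ran MACS on the merged duplicates, for which the file headers give version 1.4.3, a p-value cutoff of 1e-05 and no control. The headers give tag sizes of 142 bp (H3K4me3) and 151 bp (ASH2L), above the fragment limit in the methods, so whether only short fragments were counted is not settled. The deposited tag counts are whole tags per peak of the merged libraries, without normalization. The deposited fold enrichment is a ratio to the modelled background. The deposited score is the authors' p-value as negative log10, times 10. Peak lengths and positions were used as deposited.

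From these, peaks were assigned to genes by an overlap of at least 1 bp with the window (gene body and 5 kb upstream, GENCODE vM21), and over a start when they covered the first base of an annotated transcript. The same was done for all 21938 protein-coding genes, which give the background shares. All 10 genes were named. From the pathway list, every gene with an ASH2L peak or with no H3K4me3 peak over a start was to be named, and the gene with most tags per role; Cdk2, Ccna2, Cdk7, Ccnh, Mnat1, Cdkn2b and Rbl2 were named in addition, after their values were seen. Promoter sequences were RefSeq's. The members, lists and motifs were chosen with earlier results of these data known. The assignment was tested on simulated intervals. Python 3.11.15, numpy 2.4.6, pandas 2.3.3, scipy 1.17.1 and matplotlib 3.10.9 were used.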

Additional observations from a re-analysis of the deposited data

How the results depend on the processing

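Peaks were called on merged duplicates, so no value had a replicate error and leaving out a replicate was not possible. No paired analysis was possible because the columns of both lists merge the duplicates and carry no replicate numbers. Across 8 results, 52 alternatives were computed, and 37 stayed within 1.5 times the main value and in its direction. With peaks at or above the median fold enrichment of their list, the 31 H3K4me3 peaks became 10, the genes with a peak went from 9 to 4 and those with a peak over a start from 6 to 1 (Cdkn2a), and the ASH2L peaks and genes both went from 2 to 0. With a p-value score of at least 100, they went to 0 as well, and Ccnd2 lost its peak over a start, which left 5 such genes. The median score of the whole ASH2L list was 61.5, so a score of 100 removes most of that list. No share of all genes was computed under the fold or the score filter, so these drops have no background. For the medians of cyclins and CDKs over those of inhibitors, leaving out Rb1 raised the ratio of strongest-peak tags from 1.99 to 3.8 and of summed tags from 2.14 to 3.35. Taking the highest fold enrichment of any peak in the window, which changes the measure and at several genes the peak, reversed the former to 0.96. The fold enrichment of the peak with most tags, chosen after seeing the data, reversed it to 0.638. Per kb of window the ratio of summed tags was 8.36, and the share of the window covered gave 6.03 in place of 1.62 for summed length. In both, the inhibitor median was the value of Rb1, which has a long window, and neither was computed without Rb1. With peaks over own starts only, an alternative chosen after seeing the data, the ratios were 1.37 for summed tags and 1.02 for summed length. Gene limits from RefSeq, windows with 0, 1 or 10 kb upstream and peak midpoints changed no count by over 1.5 times. Peaks over starts of other genes were also left out as an alternative chosen after seeing the data, and gave ratios from 1.57 to 2.21. This setting also removed the promoter peak of Ccnd2 and the internal peak of Rb1, which cover own starts as well. It left Cdk4 without an H3K4me3 peak.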
